A study of Mus musculus with 24 samples.

Results

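The transcripts of the inflammasome, the cytosolic machine that turns danger signals into active caspase-1, interleukin-1β and pore-forming gasdermin D, were followed in mouse macrophages given a sphingomyelin or bacterial lipopolysaccharide. The set holds 10 of the 55401 genes in the count table, taken by name: the sensors Nlrp3, Aim2 and Nlrc4, the adaptor Pycard, the caspases Casp1 and Casp4, the pore former Gsdmd, and Nek7, Txnip and P2rx7, which act upstream of NLRP3. All 10 genes were found and all 10 had enough reads to be tested. Bone marrow-derived macrophages of wild-type C57BL/6J mice, differentiated with L929 cell-conditioned medium, formed 6 groups of 4 libraries. At 3 h and again at 18 h, the groups were cells given 30 µM S14 (sphingomyelin d18:1/14:0), cells given 100 ng/mL LPS, and cells labelled as untreated. The count table names the untreated columns Veh, and whether they received a vehicle is not settled by the sources used here. The libraries were made with QuantSeq 3′ mRNA-Seq, which counts reads near the 3′ end of polyadenylated transcripts. The design names 4 mice, but no label ties a library to an animal, so p-values measure the spread between these libraries. In bulk RNA, fewer cells expressing a gene and less RNA per cell cannot be told apart.

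Inflammasome use in macrophages is usually described as a pair of steps. In the first, priming, a receptor such as TLR4 signals through NF-κB and raises Nlrp3 and pro-interleukin-1β transcripts. In the second, a trigger such as ATP acting on P2RX7 or potassium loss lets NEK7 bind NLRP3, the sensor nucleates filaments of the adaptor ASC (the product of Pycard), caspase-1 is activated and cuts gasdermin D and the cytokines. Caspase-11, the product of mouse Casp4, binds LPS in the cytosol and cuts gasdermin D directly. Transcript levels speak to the first step only, and no protein, cleavage or release was measured here.

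The libraries held 3334182 to 6350251 reads in genes, and 11717 genes passed the filter on low counts. Levels are in CPM, read counts scaled to a common library size, with library sizes adjusted by the trimmed mean of M values (TMM). The members' counts lay between 38 and 3824 reads in a library. All 8 macrophage markers were detected, with a summed level of 19491 to 22204 CPM over all groups at 3 h. Single markers moved in opposite directions within that sum. At 3 h Csf1r averaged 1358 CPM with LPS and 2276 CPM in untreated cells. Adgre1 averaged 753 and 582 CPM, and Cd14 averaged 2770 and 1534 CPM, in the same order. At 18 h the summed macrophage markers were lower with LPS, at 15996 to 24752 CPM. The sum with S14, at 32133 to 33146 CPM, lay within the untreated range of 31585 to 44915 CPM. The mitochondrial share of reads at 18 h moved with the groups, at 1.03% to 1.27% with S14, 0.54% to 0.834% with LPS and 1.48% to 1.67% in untreated cells. At 3 h the share was 1.67% to 1.99%, 1.32% to 1.45% and 1.59% to 2.07% in the same order. The summed B-cell markers moved with the groups at 18 h, at 13.4 to 24.3 CPM with S14, 0 to 2.34 CPM with LPS and 96.3 to 171 CPM in untreated cells. Ighm carried most of this, with 3201 reads over the 4 untreated libraries at 18 h, while Cd79a, Pax5 and Ms4a1 gave at most 7 reads in any group. The fibroblast list summed to 10.3 to 17.9 CPM with LPS at 18 h and at most 4.39 CPM in every other group, nearly all from Dcn. The part of these transcripts and shares in the results was not tested. Added spike-in RNA made up 0.0134% to 0.0595% of a library, lowest in untreated replicate 4 at 18 h. That library was the highest or the lowest of its group in several members, and the outlier check below flagged it for Aim2 alone.

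Promoters of the 4 members that rose with both stimuli at 3 h are printed here because 2 of them, Nlrp3 and Casp4, hold a match to the NF-κB consensus. Each runs from 250 bases before to 50 after a RefSeq start site in GRCm38.p6, on the + strand. Capitals mark the NF-κB match in Nlrp3 and a pair of overlapping NF-κB matches in Casp4, and in Casp1 they mark an E-box.
Nlrp3, chr11:59541319-59541618: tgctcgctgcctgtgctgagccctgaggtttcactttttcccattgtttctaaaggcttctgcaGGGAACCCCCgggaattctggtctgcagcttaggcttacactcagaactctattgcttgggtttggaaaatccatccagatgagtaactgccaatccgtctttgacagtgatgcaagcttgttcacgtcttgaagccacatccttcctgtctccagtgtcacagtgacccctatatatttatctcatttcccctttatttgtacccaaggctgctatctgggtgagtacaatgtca
Casp4, chr9:5308599-5308898: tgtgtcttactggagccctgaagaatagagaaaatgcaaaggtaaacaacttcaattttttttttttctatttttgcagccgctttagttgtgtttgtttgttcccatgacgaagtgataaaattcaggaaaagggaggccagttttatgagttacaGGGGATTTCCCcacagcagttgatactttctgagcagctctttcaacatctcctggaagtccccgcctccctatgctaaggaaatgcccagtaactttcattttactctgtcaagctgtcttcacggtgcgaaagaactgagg
Casp1, chr9:5298267-5298566: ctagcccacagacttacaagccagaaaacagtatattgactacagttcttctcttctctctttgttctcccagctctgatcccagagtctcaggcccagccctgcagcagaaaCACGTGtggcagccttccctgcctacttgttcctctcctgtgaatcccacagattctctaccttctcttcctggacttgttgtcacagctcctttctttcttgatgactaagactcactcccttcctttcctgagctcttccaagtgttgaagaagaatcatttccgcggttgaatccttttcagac
Aim2, chr1:173420354-173420653: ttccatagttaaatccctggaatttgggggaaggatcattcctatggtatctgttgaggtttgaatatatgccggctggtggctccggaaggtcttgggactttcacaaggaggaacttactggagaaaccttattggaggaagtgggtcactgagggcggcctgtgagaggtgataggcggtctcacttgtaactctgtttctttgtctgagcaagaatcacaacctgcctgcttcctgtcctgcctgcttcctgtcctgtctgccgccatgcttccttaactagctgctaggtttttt

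The search used both strands. The Nlrp3 match began 186 bases before the start site, and the Casp4 matches began 93 and 92 bases before it. A second RefSeq start of Casp4, 11 bases downstream, keeps the same matches, and a second start of Nlrp3 at chr11:59542436-59542735 holds none. Among all 32851 mouse promoters of this length, 4.51% held the consensus, against 2 of the 9 members with an entry, or 3 of their 12 entries. Here and below, shares of all promoters count entries, while members are counted as genes, some with a second entry. The core of the interferon response element, a pair of GAAA runs 2 bases apart, was in 0 of the 9 and in 3.44% of all promoters. The STAT element TTCNNNGAA was also in 0 of the 9 and in 8.30% of all promoters, while the E-box CACGTG was in 1 of the 9 and in 7.15%. These are matches of letters in a 300-base window, and they are no record of binding. The promoters also differed in CpG content. Those of Nek7 and Txnip held 23 and 24 CpG, and the other 10 entries held 2 to 8. Over all promoters the median was 7 CpG, 26.5% held 20 or more and 54.2% held 8 or fewer. In GENCODE coordinates of GRCm38, Casp1 and Casp4 lie side by side on the + strand of chromosome 9 with 1562 bases between them.

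With TMM scaling, more members were called with LPS than with S14 at both times, and more with S14 at 3 h than at 18 h. With S14 at 3 h, Nlrp3, Casp4, Casp1 and Aim2 rose and Txnip fell, so 5 of 10 members were called by edgeR's quasi-likelihood test with Benjamini-Hochberg adjustment over all genes. Of all tested genes 15.2% were called, 9.05% higher and 6.20% lower. With LPS at 3 h, 7 members rose and 2 fell, beside 55.5% of all tested genes, 25.3% higher and 30.2% lower. At 18 h only Pycard was called with S14, 1 of 10 members against 24.3% of all tested genes, 12.6% higher and 11.6% lower. That count was 2 or 3 with any of 11 libraries left out, 3 without untreated replicate 4, and 4 by DESeq2's Wald test, which added Nlrp3, Aim2 (-0.39, adjusted p = 0.0456) and Nek7 (-0.23, adjusted p = 0.0485). Scaling libraries to the added spike-in RNA lowered the median of all genes by 0.97 on the log2 scale in S14 cells at 18 h, or 0.48 without untreated replicate 4, and it gave 8 members called, all lower. Under the same scaling without untreated replicate 4 the count was 1, Nlrp3. LPS at 18 h still moved 7 members, with 4 higher and 3 lower, beside 55.6% of all tested genes, 27.3% higher and 28.3% lower. At 3 h the median log2 fold change of the members was 0.25 with S14 and 1.16 with LPS, and the medians over all tested genes were -0.026 and -0.111. At 18 h the members' medians were -0.01 with S14 and 0.24 with LPS, beside -0.017 and -0.040 over all tested genes. S14 and LPS were set against the same untreated libraries at each time.

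**Figure D1:**
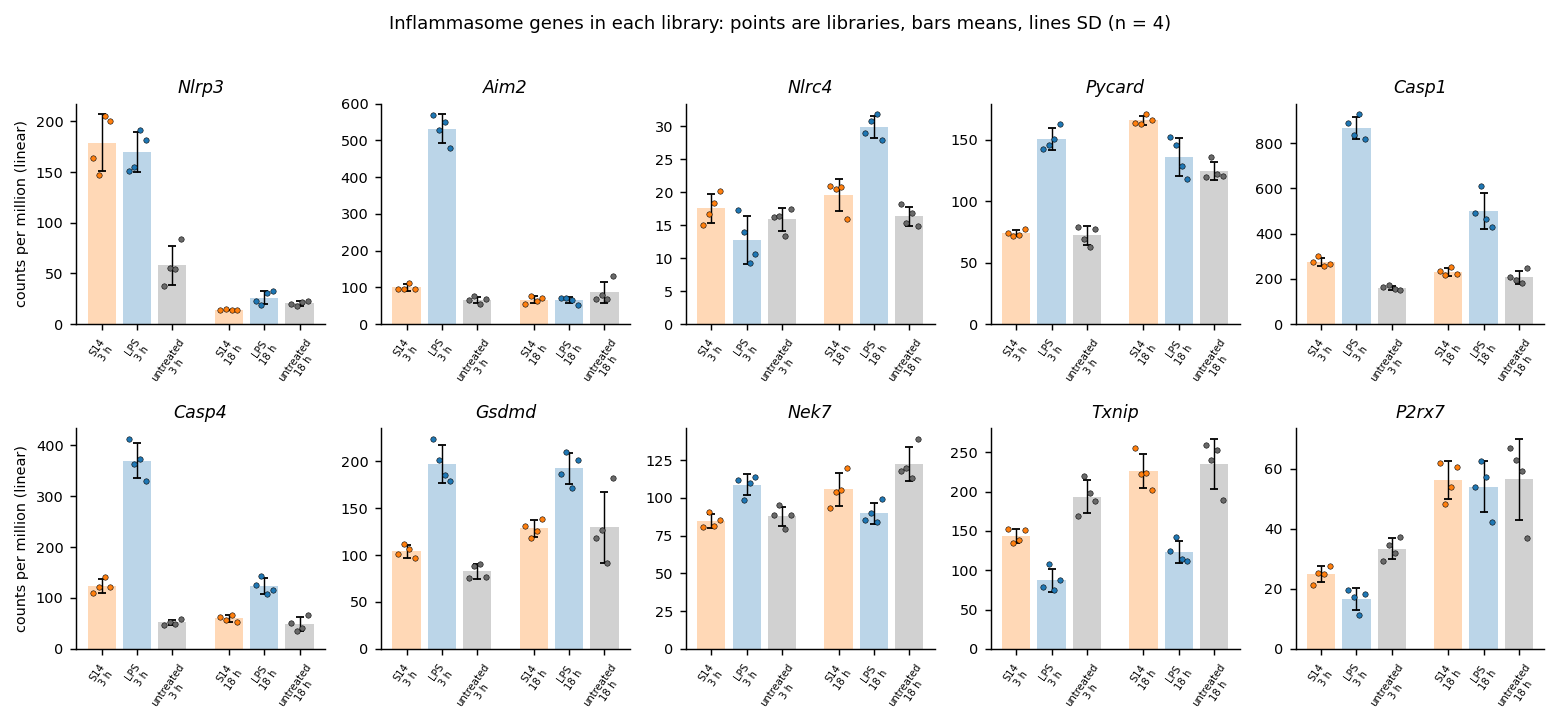
Level of each of the 10 genes in CPM (linear axis from 0) in cells given S14, cells given LPS and untreated cells at 3 h and 18 h. Points are single libraries, bars are means and lines SD over 4 libraries. Nlrp3 was highest at 3 h with both stimuli, while Aim2, Casp1 and Casp4 were highest with LPS at 3 h.

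Nlrp3, the sensor that assembles with NEK7 and ASC (ENSMUSG00000032691, chromosome 11, 59541568 to 59566956, + strand), had 164, 147, 205 and 200 CPM with S14 at 3 h, 151, 155, 191 and 182 CPM with LPS, and 37.4, 55.4, 54.1 and 84.3 CPM in untreated cells. Every stimulated library lay above every untreated one, and the S14 and LPS libraries overlapped. The rise was 3.11-fold with S14 (log2 fold change 1.64 ± 0.17 SE, adjusted p = 9.38e-09) and 2.95-fold with LPS (1.56 ± 0.17 SE, adjusted p = 3.94e-09). At 18 h the gene was low in all groups, with 13.8, 14.4, 13.5 and 13.9 CPM with S14, 22.7, 18.9, 30.2 and 33.0 CPM with LPS, and 19.9, 17.4, 21.7 and 22.8 CPM in untreated cells. The S14 libraries were the lowest of the series and did not overlap the untreated ones. The difference of S14 from untreated cells was -0.55 ± 0.21 (SE) on the log2 scale with adjusted p = 0.0527. That p lay on the edge of the threshold: without untreated replicate 2 at 18 h it was 0.0441 with a log2 fold change of -0.63. Leaving out some single libraries of other groups also took it under 0.05. The filter, the scaling, the shared spread and the adjustment over all genes were redone each time. DESeq2's Wald test gave -0.57 with adjusted p = 0.0172, and no filter on low counts gave -0.54 with adjusted p = 0.00203. Under spike-in scaling it was -1.58 with adjusted p = 0.000887, and -0.99 with adjusted p = 0.00509 without untreated replicate 4. With LPS at 18 h the value was 0.36 ± 0.19 (SE) and adjusted p = 0.113, and without LPS replicate 2 it was 0.49 with adjusted p = 0.037. In order of mean, Nlrp3 ran from S14 and LPS at 3 h, which overlapped, through untreated cells at 3 h to LPS and untreated cells at 18 h, which overlapped, and S14 at 18 h.

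Untreated cells themselves had less Nlrp3 at the later time. The mean was 20.4 ± 2.34 CPM at 18 h and 57.8 ± 19.4 CPM at 3 h (SD, n = 4 each), a log2 fold change of -1.49 ± 0.18 (SE) with adjusted p = 1.57e-07 in edgeR's test. Under scaling to the spike-in the fall was 0.62 on the log2 scale with adjusted p = 0.14, and without untreated replicate 4 at 18 h it was -1.21 with adjusted p = 0.000176. Over the same interval untreated cells had more of 7 members, and less of Nlrp3 alone, where 19.2% of all tested genes were higher and 19.6% lower (38.8% in all). Pycard (0.79 ± 0.09 SE), P2rx7 (0.76 ± 0.15 SE), Gsdmd (0.65 ± 0.13 SE) and Nek7 (0.48 ± 0.09 SE) led, with Casp1 at 0.36 ± 0.09 (SE). Aim2 (0.40, adjusted p = 0.048) and Txnip (0.28, adjusted p = 0.0274) were at the edge: without untreated replicate 4 at 18 h Aim2 was 0.13 with adjusted p = 0.351, and without untreated replicate 1 at 3 h Txnip was 0.22 with adjusted p = 0.124. Casp4 and Nlrc4 were not called, at -0.10 and 0.04, and Casp4 was -0.29 with adjusted p = 0.0448 without untreated replicate 4 at 18 h. Under spike-in scaling Casp4 turned to 0.91 with adjusted p = 0.0302, and to 0.05 without that library, where Casp1 was 0.60 with adjusted p = 0.0594.

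Aim2, the sensor of cytosolic double-stranded DNA (ENSMUSG00000037860, chromosome 1), had 96.1, 95.5, 112 and 94.6 CPM with S14 at 3 h, 570, 529, 551 and 479 CPM with LPS, and 64.5, 75.7, 54.4 and 67.7 CPM in untreated cells. The 3 groups did not overlap, and the LPS libraries stood far above the rest. LPS raised it 8.12-fold (log2 fold change 3.02 ± 0.16 SE, adjusted p = 4.15e-15) and S14 raised it 1.52-fold (0.60 ± 0.16 SE, adjusted p = 0.00772). Under spike-in scaling the S14 value was 0.71 with adjusted p = 0.541, and 0.72 with adjusted p = 0.0359 once untreated replicate 4 at 18 h was left out. At 18 h all groups were far below the LPS level of 3 h, with means of 66.6 ± 9.24 CPM with S14, 64.8 ± 8.42 CPM with LPS and 86.3 ± 29.3 CPM in untreated cells (SD, n = 4 each). Untreated replicate 4 alone stood at 130 CPM, where the other 3 untreated libraries were at 67.8 to 78.3 CPM. The fall with LPS at 18 h (-0.41 ± 0.16 SE, adjusted p = 0.0275) ended as a call without that library, at -0.15 with adjusted p = 0.224, and also without LPS replicates 3 or 4, at -0.41 and -0.33. Under spike-in scaling Aim2 at 18 h was -1.58 with S14 and -1.33 with LPS, both called, and neither was called without untreated replicate 4, at -0.58 and -0.33.

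Nlrc4, the adaptor-like sensor that NAIP proteins bind on meeting bacterial flagellin or secretion needles (ENSMUSG00000039193, chromosome 17), went its own way. At 3 h it had 15.0, 16.7, 18.3 and 20.2 CPM with S14, 17.3, 13.9, 9.22 and 10.6 CPM with LPS, and 16.2, 16.4, 13.4 and 17.4 CPM in untreated cells, and all groups overlapped. It was called with neither stimulus, at 0.16 ± 0.18 (SE) with S14 and -0.32 ± 0.18 (SE) with LPS, and LPS without its replicate 1 gave -0.50 with adjusted p = 0.0296. At 18 h it had 20.9, 20.4, 20.8 and 15.9 CPM with S14, 29.0, 30.7, 31.8 and 27.9 CPM with LPS, and 18.2, 15.3, 16.8 and 14.9 CPM in untreated cells. All LPS libraries lay above all others, a 1.83-fold rise over untreated cells (log2 fold change 0.87 ± 0.16 SE, adjusted p = 1.74e-05), which spike-in scaling put at 0.25 with adjusted p = 0.576, and at 0.67 with adjusted p = 0.0759 without untreated replicate 4.

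Pycard, which encodes ASC (ENSMUSG00000030793, chromosome 7, 127989708 to 127993867, - strand), had 73.9, 72.0, 72.5 and 77.5 CPM with S14 at 3 h, 143, 146, 151 and 163 CPM with LPS, and 79.4, 69.6, 62.9 and 77.6 CPM in untreated cells. S14 libraries sat within the untreated range and LPS libraries sat above it. The rise with LPS was 2.09-fold (log2 fold change 1.06 ± 0.09 SE, adjusted p = 1.80e-13), and with S14 the difference was 0.03 with a 95% interval of -0.15 to 0.22. At 18 h Pycard had 164, 163, 171 and 166 CPM with S14, 152, 146, 129 and 118 CPM with LPS, and 120, 136, 122 and 121 CPM in untreated cells. The S14 libraries were the highest, and the rise over untreated cells was 1.33-fold (0.41 ± 0.09 SE, adjusted p = 0.000383), but its direction turned under spike-in scaling, to -0.58, and to -0.07 without untreated replicate 4. The antisense gene Gm45205 overlaps Pycard and reached at most 1.20 CPM in any library. The strand setting of the counting is not stated.

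The caspases took part in both responses, on different scales. Casp1, the protease that cuts pro-interleukin-1β and gasdermin D (ENSMUSG00000025888, chromosome 9), had 276, 300, 256 and 266 CPM with S14 at 3 h, 887, 838, 928 and 817 CPM with LPS, and 163, 173, 155 and 152 CPM in untreated cells. The 3 groups were apart from each other. S14 raised it 1.71-fold (log2 fold change 0.77 ± 0.09 SE, adjusted p = 1.48e-08) and LPS 5.39-fold (2.43 ± 0.10 SE, adjusted p = 7.13e-25). The S14 rise had adjusted p = 0.175 under spike-in scaling, at 0.88, and 0.00244 with untreated replicate 4 at 18 h left out. At 18 h it had 236, 215, 252 and 220 CPM with S14, 493, 611, 466 and 428 CPM with LPS, and 206, 195, 181 and 247 CPM in untreated cells. LPS libraries stayed above all others, by 2.41-fold over untreated cells (1.27 ± 0.09 SE, adjusted p = 1.30e-15) and 0.49 with adjusted p = 0.213 under spike-in scaling or 1.19 with adjusted p = 1.59e-05 once untreated replicate 4 was left out, while S14 overlapped untreated cells at 0.16 ± 0.09 (SE).

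Casp4, the mouse gene of caspase-11 (ENSMUSG00000033538, chromosome 9), had 109, 122, 142 and 121 CPM with S14 at 3 h, 413, 363, 374 and 330 CPM with LPS, and 47.3, 51.8, 49.5 and 58.7 CPM in untreated cells. No library of one group reached another group. The rise was 2.39-fold with S14 (log2 fold change 1.26 ± 0.13 SE, adjusted p = 2.63e-09) and 7.14-fold with LPS (2.84 ± 0.13 SE, adjusted p = 1.19e-19). With S14, Casp4 and Nlrp3 were the members still called when libraries were scaled to the spike-in, at 1.36 and 1.75. At 18 h Casp4 had 62.0, 57.6, 67.1 and 52.5 CPM with S14, 126, 144, 108 and 115 CPM with LPS, and 51.7, 35.7, 40.3 and 66.9 CPM in untreated cells. LPS remained above untreated cells, 2.55-fold (1.35 ± 0.13 SE, adjusted p = 5.73e-11), at 0.51 with adjusted p = 0.223 under spike-in scaling and 1.37 with adjusted p = 1.76e-06 once untreated replicate 4 was left out. The S14 value was 0.31 ± 0.13 (SE) with adjusted p = 0.0948. It was 0.50 with adjusted p = 0.00079 without that untreated library, where Casp1 was 0.25 with adjusted p = 0.0249.

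Gsdmd, whose cut N-terminal part forms the pyroptotic pore (ENSMUSG00000022575, chromosome 15, 75862327 to 75867408, + strand), had 101, 112, 107 and 96.5 CPM with S14 at 3 h, 224, 201, 185 and 179 CPM with LPS, and 82.5 ± 7.72 CPM in untreated cells (SD, n = 4). The 3 groups did not overlap. LPS raised it 2.39-fold (log2 fold change 1.26 ± 0.13 SE, adjusted p = 1.91e-10). With S14 the value was 0.34 ± 0.13 (SE) with adjusted p = 0.0794. It was 0.33 with adjusted p = 0.0273 or 0.00665 once untreated replicate 3 or 4 at 18 h was left out. Leaving out a library redoes the filter, the scaling and the spread shared by all groups. At 18 h Gsdmd had 131, 118, 126 and 139 CPM with S14, 187, 210, 172 and 201 CPM with LPS, and 118, 127, 91.8 and 182 CPM in untreated cells. LPS was above S14 in every library and overlapped untreated replicate 4. The rise with LPS was 1.49-fold (0.57 ± 0.12 SE, adjusted p = 0.000168), and its direction turned under spike-in scaling, to -0.25, with 0.67 once that library was left out.

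Nek7, the kinase that licenses NLRP3 assembly by binding rather than by phosphorylation, moved little. It had 80.6, 90.8, 81.2 and 85.6 CPM with S14 at 3 h, 112, 98.3, 110 and 114 CPM with LPS, and 88.3, 95.0, 79.4 and 88.4 CPM in untreated cells. LPS libraries lay just above untreated ones at 3 h (log2 fold change 0.31 ± 0.09 SE, adjusted p = 0.00558) and S14 libraries overlapped them (-0.05 ± 0.10 SE). At 18 h the order was the other way, with 85.5, 90.1, 83.9 and 99.1 CPM with LPS and 118, 120, 113 and 139 CPM in untreated cells, a fall of 0.45 on the log2 scale (adjusted p = 7.05e-05), which was -1.15 with adjusted p = 0.0048 under spike-in scaling and -0.50 with adjusted p = 0.116 once untreated replicate 4 was left out. Under spike-in scaling the rise at 3 h was 0.67 with adjusted p = 0.136, or 0.0154 without untreated replicate 4 at 18 h. With S14 at 18 h the 4 libraries ran from 93.1 to 120 CPM, the difference from untreated cells was -0.22 with adjusted p = 0.0819, and without S14 replicate 4 it was -0.28 with adjusted p = 0.0365.

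Txnip, the arrestin-family protein that binds thioredoxin and is released to NLRP3 under oxidative stress, fell with S14 at 3 h and with LPS at both times. It had 152, 135, 138 and 151 CPM with S14 at 3 h, 79.2, 108, 74.8 and 87.5 CPM with LPS, and 169, 220, 198 and 188 CPM in untreated cells. The 3 groups were apart, with LPS lowest. The log2 fold change was -0.43 ± 0.10 (SE) with S14 (adjusted p = 0.00254) and -1.15 ± 0.11 (SE) with LPS (adjusted p = 3.19e-12). At 18 h it had 255, 223, 224 and 202 CPM with S14, 125, 142, 114 and 112 CPM with LPS, and 259, 240, 253 and 189 CPM in untreated cells. With TMM scaling S14 cells were back within the untreated range (-0.06 ± 0.10 SE), and LPS cells were still below it (-0.93 ± 0.10 SE, adjusted p = 3.83e-10). Under spike-in scaling the S14 value at 18 h was -0.97 with adjusted p = 0.00617, and -0.63 with adjusted p = 0.0524 without untreated replicate 4. The LPS value stayed called, at -1.54 and -1.19 in the same order. The S14 fall at 3 h was -0.29 with adjusted p = 1 under spike-in scaling and with adjusted p = 0.753 once untreated replicate 4 at 18 h was left out. The antisense gene Gm15441, which overlaps Txnip, reached at most 1.74 CPM in a library.

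P2rx7, the ATP-gated channel that lets potassium out of the cell, was lowest with LPS at 3 h. It had 21.2, 25.4, 24.9 and 27.6 CPM with S14, 19.7, 17.3, 11.2 and 18.2 CPM with LPS, and 29.2, 34.7, 31.9 and 37.3 CPM in untreated cells. No groups overlapped. The fall was 1.01 on the log2 scale with LPS (± 0.18 SE, adjusted p = 4.42e-06). With S14 the value was -0.42 ± 0.16 (SE) with adjusted p = 0.0843, and -0.42 with adjusted p = 0.0274 once untreated replicate 4 at 18 h was left out. Under spike-in scaling the LPS value was -0.63 with adjusted p = 0.151, and -0.64 with adjusted p = 0.041 without that library. At 18 h the means were 56.2 ± 6.41 CPM with S14, 53.9 ± 8.48 CPM with LPS and 56.5 ± 13.4 CPM in untreated cells (SD, n = 4 each), and all groups overlapped. Under spike-in scaling the S14 value at 18 h was -0.83 with adjusted p = 0.0212, and -0.62 with adjusted p = 0.0737 without untreated replicate 4. The LPS value was not called either way, at -0.62 and -0.42.

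**Figure D2:**
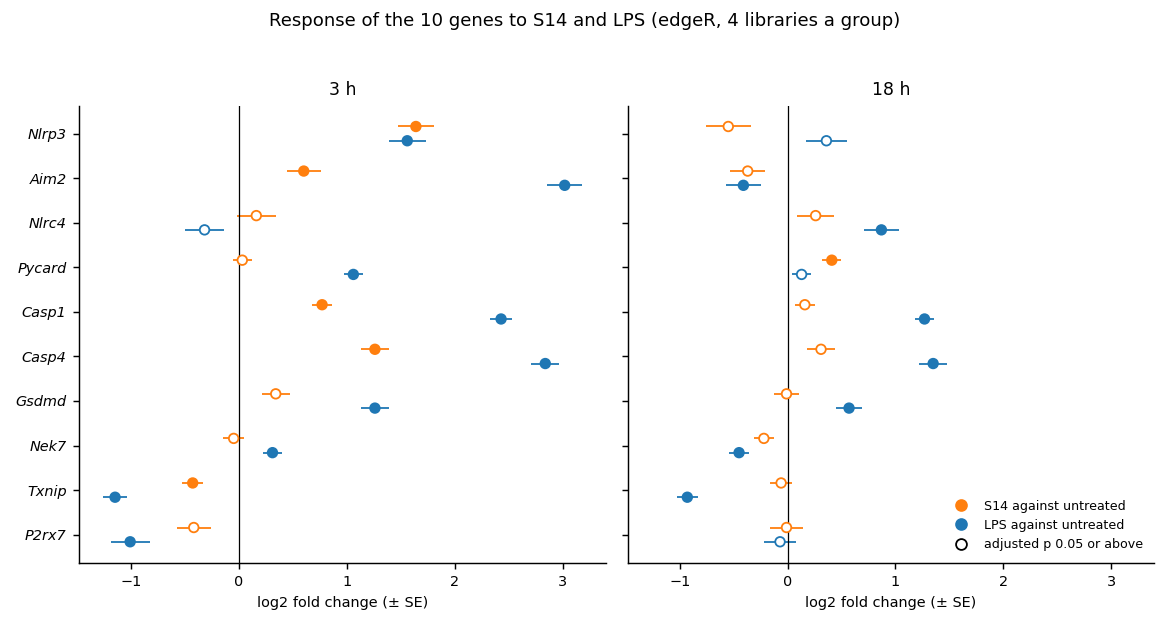
Log2 fold change (± SE, n = 4 libraries a group) of each gene with S14 (orange) and LPS (blue) against untreated cells, at 3 h and 18 h. Open circles had an adjusted p of 0.05 or above. At 3 h the S14 and LPS values meet for Nlrp3, at 1.64 and 1.56, and lie apart for Aim2, at 0.60 and 3.02.

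Priming of the sensor was then set against the other components within each library. The log2 ratio of Nlrp3 to a gene in the same library does not depend on how libraries are scaled, and its change was tested with limma over 11716 genes. With S14 at 3 h Nlrp3 gained on 8 of the 9 other members, and on 95.9% of all genes, so this count is near the background and is no property of the set. The gain was 2.09 ± 0.23 (SE) on Txnip, 1.63 ± 0.23 on Pycard, 1.33 ± 0.23 on Gsdmd and 0.90 ± 0.22 on Casp1. Casp4 was the member on which the gain was not called, at 0.42 ± 0.23 (SE) with adjusted p = 0.0675, which was 0.56 with adjusted p = 0.0137 without untreated replicate 4 at 3 h and 0.51 with adjusted p = 0.0409 without S14 replicate 2.

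With LPS at 3 h the picture differed. Nlrp3 gained on 5 members, where it gained on 86.2% of all genes, and lost to 3, where it lost to 5.31% of all genes. The 3 were Aim2 (-1.42 ± 0.23 SE, adjusted p = 7.59e-09), Casp4 (-1.23 ± 0.23 SE, adjusted p = 3.56e-07) and Casp1 (-0.83 ± 0.22 SE, adjusted p = 0.000366). Gsdmd was not called, at 0.35 ± 0.23 (SE) with adjusted p = 0.138, and was 0.58 with adjusted p = 0.0107 without untreated replicate 4 at 3 h. The gain on Pycard was 0.54 ± 0.23 (SE) with adjusted p = 0.0197, which was 0.31 with adjusted p = 0.165 without untreated replicate 1 at 3 h and 0.48 with adjusted p = 0.0581 without LPS replicate 3.

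The 2 stimuli were then compared directly. At 3 h every member except Nlrp3 was called, 9 of 10, against 46.1% of all tested genes. In S14 cells 3 were higher and 6 lower, beside 23.7% and 22.4% of all tested genes. Nlrp3 differed by 0.08 ± 0.16 (SE), with a 95% interval of -0.24 to 0.39 and adjusted p = 0.725 in edgeR's test, and by -0.13 under spike-in scaling. Aim2 was lower with S14 by 5.34-fold (log2 fold change -2.42 ± 0.15 SE), Casp1 by 3.16-fold (-1.66 ± 0.09 SE), Casp4 by 2.99-fold (-1.58 ± 0.12 SE), Pycard by 2.04-fold (-1.03 ± 0.09 SE), Gsdmd by 1.89-fold (-0.92 ± 0.13 SE) and Nek7 by 1.28-fold (-0.36 ± 0.09 SE). Txnip (0.72 ± 0.11 SE), P2rx7 (0.59 ± 0.18 SE) and Nlrc4 (0.47 ± 0.18 SE) were higher with S14. The P2rx7 call ended without LPS replicate 3, at 0.44 with adjusted p = 0.0525, and Nlrc4, with adjusted p = 0.0308, lost its call without S14 replicates 3 or 4 or LPS replicates 3 or 4, at 0.34 to 0.45. Spike-in scaling also ended the calls of Nek7 (-0.61, adjusted p = 0.232), Txnip (0.52, adjusted p = 0.262), P2rx7 (0.33, adjusted p = 0.559) and Nlrc4 (0.19, adjusted p = 0.787). Without untreated replicate 4 at 18 h Nek7 was called at the same -0.61, with adjusted p = 0.0385, and the other 3 were not, with adjusted p of 0.0787 for Txnip, 0.351 for P2rx7 and 0.638 for Nlrc4.

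As ratios within the library, Nlrp3 stood higher in S14 cells than in LPS cells against 5 of 9 members at 3 h, where it did so against 16.0% of all genes. The log2 ratio of Nlrp3 to Aim2 was 0.83 ± 0.19 with S14 and -1.65 ± 0.24 with LPS (SD, n = 4 each), a difference of 2.48 ± 0.23 (SE). To Casp1 it was -0.63 ± 0.33 with S14 and -2.35 ± 0.17 with LPS (SD), and to Casp4 it was 0.52 ± 0.19 with S14 and -1.12 ± 0.27 with LPS (SD). The gains were 1.73 on Casp1, 1.65 on Casp4, 1.09 on Pycard and 0.98 on Gsdmd, with adjusted p of 0.000186 or lower in limma's test. Nlrp3 stood lower against Txnip, by -0.66 ± 0.23 (SE, adjusted p = 0.0159), where it stood lower against 12.6% of all genes. That call ended without S14 replicates 1 or 2 or LPS replicate 3, at -0.60, -0.60 and -0.53.

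**Figure D3:**
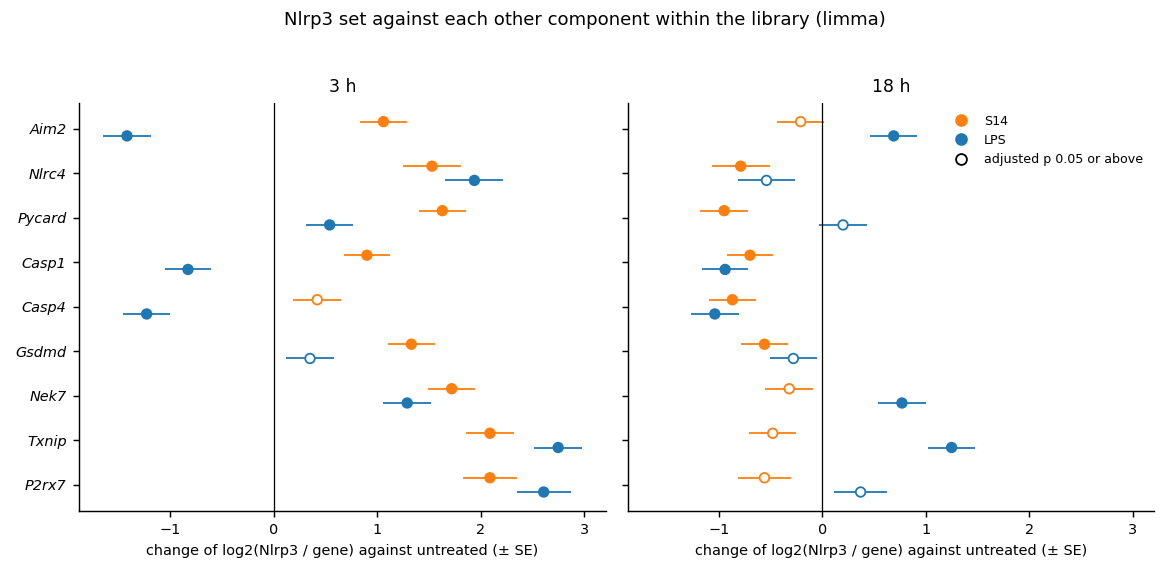
Change of the log2 ratio of Nlrp3 to each other gene within the library, S14 (orange) and LPS (blue) against untreated cells, at 3 h and 18 h (± SE, limma). Points right of 0 mean that Nlrp3 gained on the gene, and open circles had an adjusted p of 0.05 or above. At 3 h Aim2, Casp1 and Casp4 lie left of 0 with LPS, at -1.42, -0.83 and -1.23, and right of it with S14, at 1.06, 0.90 and 0.42.

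At 18 h the ratio had turned in S14 cells. Nlrp3 lost to 5 members, where it lost to 36.3% of all genes, and gained on 0, where it gained on 1.51%. The losses were 0.95 to Pycard, 0.87 to Casp4, 0.79 to Nlrc4, 0.70 to Casp1 and 0.56 to Gsdmd on the log2 scale. Those to Pycard and Casp4 stayed called with any single library left out, and the others did not: Casp1 had adjusted p = 0.0506 without untreated replicate 3, Nlrc4 had 0.0765 without untreated replicate 4, 0.0579 without S14 replicate 1 and 0.0616 without S14 replicate 3, and Gsdmd lost its call without untreated replicates 1 or 3 or S14 replicates 1, 3 or 4. With LPS at 18 h Nlrp3 lost to Casp4 (-1.04 ± 0.23 SE) and Casp1 (-0.94 ± 0.22 SE), where it lost to 10.7% of all genes. It gained on Txnip (1.25 ± 0.23 SE), Nek7 (0.77 ± 0.23 SE) and Aim2 (0.69 ± 0.23 SE), where it gained on 32.4%, and the gain on Aim2 had adjusted p = 0.0631 without untreated replicate 4 and 0.098 without LPS replicate 4.

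Between S14 and LPS at 18 h, 8 of 10 members were called, with 3 higher and 5 lower, against 42.6% of all tested genes (21.3% each way). S14 cells had less Casp1 (-1.11 ± 0.09 SE), Casp4 (-1.04 ± 0.13 SE), Nlrp3 (-0.92 ± 0.21 SE), Nlrc4 (-0.61 ± 0.17 SE) and Gsdmd (-0.58 ± 0.12 SE) in edgeR's test. They had more Txnip (0.88 ± 0.11 SE), Pycard (0.28 ± 0.09 SE) and Nek7 (0.23 ± 0.09 SE), of which Pycard and Nek7 turned to -0.01 and -0.12 under spike-in scaling. Casp1, Casp4 and Nlrp3 kept their calls under that scaling, while Nlrc4 (-0.94, adjusted p = 0.0636), Gsdmd (-0.92, adjusted p = 0.0615) and Txnip (0.57, adjusted p = 0.197) lost theirs. Without untreated replicate 4 at 18 h those 3 stayed called, with adjusted p of 0.00506 for Nlrc4, 0.000612 for Gsdmd and 0.0458 for Txnip. The Nek7 call, with adjusted p = 0.0422, also ended without S14 replicates 2, 3 or 4 or LPS replicates 1, 2 or 3, at 0.17 to 0.24. As a ratio, Nlrp3 stood lower in S14 cells against 5 of 9 members, and against 68.2% of all genes, and it was called neither way against Casp1 and Casp4, at 0.24 and 0.18.

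**Figure D4:**
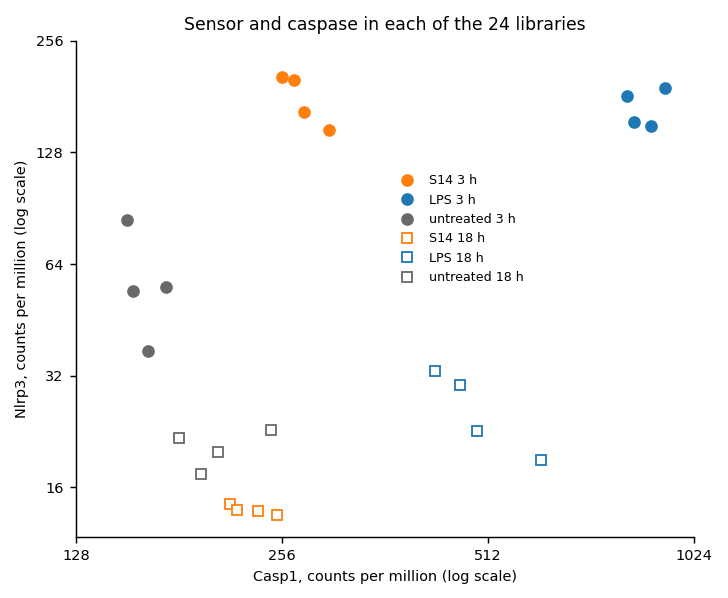
Nlrp3 against Casp1 in each of the 24 libraries, both in CPM on log axes, with filled circles at 3 h and open squares at 18 h. S14 and LPS libraries at 3 h share the same height, at 147 to 205 and 151 to 191 CPM of Nlrp3, and stand apart sideways, at 256 to 300 and 817 to 928 CPM of Casp1.

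The change of each response over time was tested as an interaction. The S14 response at 18 h was lower than that at 3 h for Nlrp3 by 2.19 on the log2 scale, and for Aim2, Casp4 and Casp1 as well, and it was higher for Pycard, so 5 of 10 members were called. Of all tested genes 16.6% were, 7.61% higher and 8.98% lower. For LPS 9 of 10 were called against 51.2%, made of 25.1% higher and 26.1% lower. Here Aim2, Casp4, Nlrp3, Casp1, Pycard, Nek7 and Gsdmd had the lower response at 18 h and Nlrc4 and P2rx7 the higher. Under spike-in scaling Nlrc4 and P2rx7 lost those calls, at 0.18 and 0.01, or 0.60 and 0.23 without untreated replicate 4 at 18 h, and the S14 term of Pycard turned to -0.71, or -0.21 without it. That scaling also called the S14 terms of Gsdmd (-1.62, adjusted p = 0.0147) and Nek7 (-1.33, adjusted p = 0.0291), which were not called without that library. Txnip was the member whose LPS response was not called as different between the times, at 0.22 with a 95% interval of -0.09 to 0.52. The untreated libraries enter both sides of these terms, so the fall of Nlrp3 in untreated cells is part of them.

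The wider pathway was read in 8 lists, from which genes were named by the size of their change at 3 h. The list counts and pathway calls rest on TMM scaling alone, and no other setting was read for them. Under spike-in scaling 374 of all tested genes were called with S14 at 3 h in place of 1786. Without untreated replicate 4 at 18 h that number was 798. The list counts stand beside 15.2% of all tested genes called at 3 h with S14 and 55.5% with LPS. A list with a share near these is no result about the list. Of the 3 caspase-1 substrates and partners, all 3 rose with both stimuli at 3 h. Il1b, pro-interleukin-1β, had 327, 515, 625 and 546 CPM with S14, 3789, 3406, 4619 and 4226 CPM with LPS, and 13.0, 9.23, 11.9 and 15.6 CPM in untreated cells. Its log2 fold change was 5.35 ± 0.40 (SE) with S14 (adjusted p = 3.65e-09) and 8.34 ± 0.43 (SE) with LPS (adjusted p = 1.25e-12). At 18 h Il1b averaged 13.0 ± 3.47 CPM with S14, 1696 ± 867 CPM with LPS and 3.10 ± 1.65 CPM in untreated cells (SD, n = 4 each), and both differences from untreated cells were called. Il1a, the alarmin cytokine, averaged 7.68 ± 1.42 CPM with S14 and 161 ± 19.1 CPM with LPS at 3 h, against 2 reads in all over the 4 untreated libraries (adjusted p = 1.11e-10 with S14 and 2.41e-24 with LPS). Il18, whose product is also cut by caspase-1, rose by 0.82 ± 0.16 (SE) with S14 and 3.00 ± 0.15 (SE) with LPS at 3 h.

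The other lists were read under the same limit. Of 16 tested genes of cytosolic LPS sensing, 10 rose and 1 fell with S14 at 3 h, and 13 rose and 1 fell with LPS, with list medians of 0.67 and 2.10 on the log2 scale. Gbp2 and Gbp3, guanylate-binding proteins that gather on bacterial LPS, led. Gbp2 averaged 161 ± 16.0 CPM with S14, 1677 ± 89.2 CPM with LPS and 30.9 ± 3.69 CPM in untreated cells, and Gbp3 averaged 64.8 ± 8.13, 839 ± 70.6 and 17.6 ± 4.10 CPM in the same order (SD, n = 4 each). Their sequences are alike, and shared reads could be split between them. Of 14 caspase and cell-death genes, 6 rose and 0 fell with S14 and 10 rose and 2 fell with LPS. Cflar, the caspase-8 inhibitor cFLIP, rose by 1.19 ± 0.09 (SE) with S14 and 3.01 ± 0.09 (SE) with LPS. Casp12 had 140 reads over the 4 LPS libraries at 3 h, 4 over the S14 libraries and 0 over the untreated ones. It was called with LPS and not with S14. Casp12 passed the filter on low counts through its LPS libraries at 3 h and was named by its change there. Its call with LPS is therefore no separate support for that change.

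Among 26 genes that license or restrain NLRP3, 4 rose and 2 fell with S14 and 11 rose and 6 fell with LPS, and the list medians were 0.01 and 0.16. Gbp5, reported to promote NLRP3 assembly, averaged 176 ± 14.5 CPM with S14, 3038 ± 442 CPM with LPS and 16.2 ± 2.30 CPM in untreated cells (SD, n = 4 each). Tnfaip3, the ubiquitin-editing inhibitor A20, averaged 71.9 ± 10.9 CPM with S14, 459 ± 37.8 CPM with LPS (SD, n = 4 each), against 24.0, 28.6, 22.4 and 24.8 CPM in untreated cells. Of 7 other sensors tested, 2 rose and 1 fell with S14 and 4 rose and 1 fell with LPS. Zbp1, the sensor of Z-form nucleic acids, rose by 1.19 ± 0.14 (SE) with S14 and 3.66 ± 0.14 (SE) with LPS, while Nlrp1b, with 3 reads in S14, 6 in LPS and 30 in untreated libraries, was lower with both (adjusted p = 0.0054 and 0.0222). The Naip genes of this list are related copies, and whether reads were shared between them was not tested.

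Of 14 ion and ATP channel genes, 2 rose and 5 fell with S14 and 7 rose and 4 fell with LPS. Kcnk13, a two-pore potassium channel named THIK-1, averaged 28.6 ± 2.24 CPM with S14, 3.99 ± 1.34 CPM with LPS and 44.0 ± 3.95 CPM in untreated cells at 3 h (SD, n = 4 each), the same order of groups as P2rx7. Clic4, a chloride intracellular channel protein, went the other way, by 0.76 ± 0.08 (SE) with S14 and 3.06 ± 0.08 (SE) with LPS. Of 13 thioredoxin and arrestin genes, 4 rose and 0 fell with S14 and 5 rose and 3 fell with LPS. Arrdc2 and Arrdc3, arrestin relatives of Txnip, averaged 8.18 ± 1.77 and 1.90 ± 0.343 CPM with S14, 1.79 ± 1.15 and 0.326 ± 0.245 CPM with LPS, and 11.1 ± 1.82 and 3.73 ± 0.425 CPM in untreated cells (SD, n = 4 each), called with LPS at adjusted p = 2.83e-09 and 4.45e-07 and not with S14. Of 12 membrane-repair genes of the ESCRT machinery, which removes gasdermin pores, 0 moved with S14 and 5 rose and 1 fell with LPS, with Chmp4b at 1.73 ± 0.09 (SE) and Chmp6 at -1.02 ± 0.17 (SE).

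At 18 h, where 24.3% of all tested genes were called with S14 and 55.6% with LPS, the lists gave these counts. With S14 the numbers higher and lower were 2 and 0 of the other sensors, 3 and 1 of the cell-death genes, 2 and 0 of the substrates, 4 and 5 of the NLRP3 regulators, 1 and 2 of the channels, 5 and 1 of the thioredoxin and arrestin genes, 4 and 0 of cytosolic LPS sensing and 0 and 0 of membrane repair. With LPS they were 4 and 1, 9 and 3, 3 and 0, 17 and 2, 8 and 5, 7 and 0, 12 and 2, and 7 and 0 in the same order of lists. Il18 remained higher with LPS, by 1.75 ± 0.15 (SE), and was not called with S14, at 0.33.

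Among 5010 genes with a range of at least 1 on the log2 scale over the 6 group means, those most like Nlrp3 were Cox7a1 (Pearson r = 0.992), Cd14 (0.988), Hcar2 (0.987), Gabpa (0.985) and Trps1 (0.984), with n = 6 group means and no test. Cd14, the co-receptor that hands LPS to TLR4, averaged 2401 ± 296 CPM with S14, 2770 ± 152 CPM with LPS and 1534 ± 190 CPM in untreated cells at 3 h, and 653 ± 78.0, 822 ± 263 and 835 ± 128 CPM in the same order at 18 h (SD, n = 4 each). Pearson r takes no account of the size of a change. With S14 at 3 h and in untreated cells at that time, means were 15.8 and 10.6 CPM for Cox7a1 and 56.4 and 45.5 CPM for Trps1. They were 24.1 and 18.8 CPM for Gabpa and 66.9 and 12.7 CPM for Hcar2. Of the members, r with Nlrp3 was 0.698 for Casp4, 0.665 for Aim2 and 0.426 for Casp1. It was -0.018 for Gsdmd, -0.376 for Nek7, -0.471 for Pycard, -0.532 for Nlrc4, -0.691 for Txnip and -0.952 for P2rx7. Those most like Txnip were Prkag2 and Calhm2 (0.994), Knop1 (0.993), and Ctdsp2 and Nckipsd (0.992), and Casp4 stood at -0.967. Calhm2, a calcium homeostasis modulator, averaged 17.9 ± 5.47 CPM with S14, 4.50 ± 0.570 CPM with LPS and 28.9 ± 5.65 CPM in untreated cells at 3 h (SD, n = 4 each).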

How the data were processed

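Starting material was a pair of tables of 24 libraries. The first holds whole read counts per gene that the authors deposited with no normalization. The second holds counts divided by size factors, a signal scale that the authors deposited. From it 100% of values came back as whole reads within 0.01. These recovered reads were close to the first table's but not all the same. Casp1 differed in 15 libraries (-0.0486% of its reads) and Aim2 in 13 (-0.109%), while Gsdmd, Nlrp3 and Nlrc4 were identical. On the recovered reads Aim2 between the untreated times was 0.36 with adjusted p = 0.0546 in edgeR's test. Per the submitters' processing notes, reads were trimmed with cutadapt 1.18, aligned with STAR 2.6.1a to GRCm38 and counted with featureCounts 1.6.4, and DESeq2 was also named there. The sources used here state neither the strand setting nor the annotation release. Here 7 ribosomal RNA entries (0.132% to 0.469% of a library) were set aside, and 0 columns of values were left unmapped.

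Genes were kept by edgeR's filterByExpr (minimum count 10, minimum total 15), leaving 11717. The main test was edgeR 4.0.16's quasi-likelihood F test with robust fits, TMM scaling, 1 mean per group over all 24 libraries (18 residual degrees of freedom) and Benjamini-Hochberg adjustment, called under 0.05. The ratio of Nlrp3 to each gene was tested with limma 3.58.1 (log2 scale, prior count 2). R was 4.3.3, DESeq2 1.42.0 and the promoters were RefSeq's in GRCm38.p6. The scripts were tested on simulated data. Alternatives were DESeq2's size factors and its Wald test, scaling to 114 spike-in RNAs with and without the library lowest in them, no filter, a replicate block, the groups compared alone, the recovered reads and leaving out each library. The members, gene lists, markers and motifs were chosen with earlier results of these data known. Pathway genes were named as the 2 with the largest change per list among those called at 3 h, plus Il1b and Il18, and the genes most like Nlrp3 and Txnip as the 5 with the highest correlation among those with at least 10 CPM in some group. Depth sets the precision, and a gene at 38 reads in a library is counted less exactly than one at 3824.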

Additional observations from a re-analysis of the deposited data

Results flagged for a closer look

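Single libraries stood apart from the other 3 of their group in 4 of 60 checks of a member in a group, by Dixon's test of the gap to the nearest library, which chance alone passes in about 1 of 20 groups. Aim2 was at 112 CPM in S14 replicate 3 at 3 h, where the other S14 libraries lay at 94.6 to 96.1 CPM. It was at 130 CPM in untreated replicate 4 at 18 h, above the others at 67.8 to 78.3 CPM. Nlrc4 was at 15.9 CPM in S14 replicate 4 at 18 h, below the others at 20.4 to 20.9 CPM. Pycard was at 136 CPM in untreated replicate 2 at 18 h, above the others at 120 to 122 CPM.

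The response to a stimulus differed between 18 h and 3 h in 14 tests of the difference itself, by edgeR's quasi-likelihood interaction term with Benjamini-Hochberg adjustment over all genes. Values are the response at 18 h minus that at 3 h on the log2 scale. With S14 the response at 18 h was lower for Nlrp3 (-2.19, adjusted p = 7.28e-07), Aim2 (-0.98, adjusted p = 0.00263), Casp4 (-0.95, adjusted p = 0.000355) and Casp1 (-0.61, adjusted p = 0.000688). It was higher for Pycard (0.38, adjusted p = 0.036), a call that ended without any one of 9 libraries, at 0.33 to 0.38, and with DESeq2's size factors, at 0.34. With LPS the response at 18 h was lower for Aim2 (-3.44, adjusted p = 6.67e-13), Casp4 (-1.49, adjusted p = 1.84e-08), Nlrp3 (-1.20, adjusted p = 0.000262), Casp1 (-1.16, adjusted p = 4.78e-10) and Pycard (-0.93, adjusted p = 3.93e-08). The same held for Nek7 (-0.76, adjusted p = 6.25e-06) and Gsdmd (-0.69, adjusted p = 0.00139). The response was higher at 18 h for Nlrc4 (1.19, adjusted p = 8.60e-05) and P2rx7 (0.94, adjusted p = 0.000675).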

How the results depend on the processing

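Among log2 fold changes of members under settings other than leaving out a library, 619 kept direction and side of the threshold, 38 lost a call, 24 gained one and 39 turned. With a library left out 2077 kept both, 45 lost a call, 22 gained one and 16 turned. The cause of the other changes was not tested. Scaling to the spike-in RNA moved the most. It shifted the median of all genes at 3 h by 0.11 for S14 and 0.34 for LPS, at 18 h by -0.97 for S14 and -0.64 for LPS (-0.48 and -0.16 without untreated replicate 4), by -0.23 at 3 h and -0.32 at 18 h between S14 and LPS, and by 0.83 between the untreated times (0.34 without that library). Genes called became 374 for 1786 with S14 at 3 h (798 without that library), 3296 for 6500 with LPS at 3 h (4714), 7639 for 2844 with S14 at 18 h (2290), 2232 for 5399 (3499 without it) between S14 and LPS at 3 h, 1915 for 4996 at 18 h (3697) and 4115 for 1944 in the S14 interaction (1427). Without that library they were 4018 for 6517 with LPS at 18 h and 2422 for 4547 between the untreated times.

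Members called became 2 for 5 with S14 at 3 h (4 without that library), 8 for 1 with S14 at 18 h (1), 3 for 7 with LPS at 18 h (4), 5 for 9 between S14 and LPS at 3 h (6) and 3 for 8 at 18 h (6). Directions turned under spike-in scaling as follows, with the value lacking untreated replicate 4 at 18 h after "or". With S14 at 3 h Nek7 was 0.06 or 0.06, and with LPS Nlrc4 was 0.08 or 0.06. With S14 at 18 h Nlrc4 was -0.68 or -0.27, Pycard -0.58 or -0.07, Casp1 -0.93 or -0.22 and Casp4 -0.85, and with LPS Nlrp3 was -0.27, Gsdmd -0.25 and Pycard -0.56 or -0.06. Between S14 and LPS, Nlrp3 was -0.13 either way at 3 h, and at 18 h Aim2 was -0.25, Pycard -0.01, Nek7 -0.12 and P2rx7 -0.21, either way. Casp4 between the untreated times was 0.91 or 0.05. The S14 interaction was -0.95 or -0.54 for Nlrc4, -0.71 or -0.21 for Pycard, -0.68 or -0.33 for Txnip and -0.53 or -0.33 for P2rx7, and the LPS one was -0.73 or -0.38 for Txnip.

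With S14 at 18 h the members called were 2 with DESeq2's size factors, 2 in the groups compared alone, 4 with no filter and 4 by DESeq2's Wald test, and P2rx7 was 0.00 with no filter and 0.00 on the recovered reads. Leaving out single libraries gave 1 to 3 members called there, where the other comparisons stayed within 1.5 times. It also turned values near 0: Pycard with S14 at 3 h (-0.03 to 0.08), P2rx7 (-0.16 to 0.08) and Gsdmd (-0.15 to 0.20) with S14 at 18 h, P2rx7 with LPS at 18 h (-0.22 to 0.03), Aim2 (-0.04 to 0.12) and P2rx7 (-0.04 to 0.14) between S14 and LPS at 18 h, and Nlrc4 (-0.04 to 0.08) and Casp4 (-0.29 to 0.02) between the untreated times. The ratio of Nlrp3 between S14 and LPS at 18 h ran from -0.00 to 0.43 on Casp1 and from -0.04 to 0.33 on Casp4. The number of members on which Nlrp3 gained stayed within 1.5 times under every setting run.

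Same-numbered libraries of different groups had a median r of 0.03 (60 pairs, -0.10 to 0.14) and differently numbered ones -0.01 (180 pairs, -0.11 to 0.11). Of the 24 libraries 17 correlated best with their own number among the 4 numbers, a hint from the data that the numbers may pair libraries. Just 1 of the 60 pairs was over 0.1, a cut that does not bear on a small shared effect. No label gives a pairing, so the main test left the numbers out. Whether they pair libraries is not settled here. A replicate block gave 2 members called with S14 at 18 h, with Nlrp3 at -0.54 (adjusted p = 0.00619), and called Nlrp3 with LPS at 18 h (0.35, adjusted p = 0.0307). It ended the call of Aim2 between the untreated times (0.39, adjusted p = 0.0693). It added calls of the ratio of Nlrp3 to Casp4 with S14 at 3 h (0.42), to Txnip (-0.48) and P2rx7 (-0.56) with S14 at 18 h, and to P2rx7 between S14 and LPS at 3 h (-0.52). The planned description of protein sites was not made. Depth limits Nlrc4, P2rx7 and Nlrp3 most, whose counts were the lowest of the members.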
